A study of Mus musculus with 18 samples.

Results

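Genes that mark neural progenitors, radial glia and astrocytes were followed in microglia sorted from the embryonic mouse hippocampus. The 34 genes were taken by name from a list. Among the probe sets that name only that gene, the one brightest on average stood for it. They were 34 of the 18194 genes with such a probe set, and 31 of them passed the filter on low mean levels that left 11630 genes for testing. Hes1, S100b and Aqp4 did not pass and are given by level only. The values are log2 expression from Affymetrix Mouse430_2 arrays, on which 1 unit is a doubling and 2.19 is the lowest value of every array.

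The 18 arrays form 4 groups. In the LPS group (4 arrays) the dams had been made inflamed with lipopolysaccharide, a component of the bacterial cell wall, and in the PBS group (4 arrays) they were given PBS; both are wild type. The DAP12KO group (4 arrays) has the DAP12-/- genotype and no treatment, and the UT group (6 arrays) is wild type and untreated. All embryos had the C57BL/6 background and were taken at E17.5, and cells with GFP at Cx3cr1, a fractalkine receptor gene of microglia, were sorted from pooled hippocampi. RNA was pooled per dam, so that an array stands for a litter. Each label also ends in a year, written here as it stands there, and the sources used here do not say what the year dates. The year was _2008 for 1 LPS and 1 PBS array, _2010 for 2 LPS and 2 PBS arrays, _2012 for 2 UT arrays, and _2013 for 1 LPS, 1 PBS, 4 DAP12KO and 4 UT arrays. Nothing in the labels says that the 2 arrays of a group and year came from separate sorts, so p-values may in part measure technical spread.

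Radial glia are the stem cells of the developing forebrain: they line the ventricle, divide to give neurons, and later turn into astrocytes and adult stem cells. Transcription factors of the Pax, Sox, Emx and Lhx families hold their identity, Notch ligands such as Dll1 signal through Notch1 to the repressors Hes1 and Hes5 to keep them from differentiating, and Neurog2 and Eomes mark their commitment to neurons. Filament proteins, glutamate transporters, lipid carriers and matrix proteins make up their glial equipment. Microglia come from the yolk sac and not from this lineage, so that most of these genes are not classed as microglial.

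The 17 measured microglia markers had a mean of 11.27 and 11.58 on the 2 PBS arrays labelled _2010 and of 12.52 to 13.58 on the other 16. Single markers were uneven on those PBS arrays. P2ry12 was at 12.22 and 12.46, whereas Itgam was at 5.34 and 6.69 and Trem2 at 6.22 and 7.27. In UT arrays the lowest values were 13.48 for P2ry12, 10.18 for Itgam and 12.48 for Trem2. The 34 progenitor and glial genes had a mean of 9.45 and 9.23 on those PBS arrays, of 7.53 and 7.36 on the LPS arrays of that year, and of 5.35 to 6.89 on the other arrays. A mean over 17 neuron markers ran with it, at 10.94 and 11.01 on the PBS arrays of _2010, 9.22 and 9.27 on the LPS arrays of _2010, and 6.04 to 8.53 elsewhere. All 17 neuron markers passed the filter. Markers of several other cell types were also highest on the PBS arrays of _2010. The mean over 7 pericyte and meninges markers (5 passed the filter) was 6.41 and 5.43 on them, 5.04 and 4.603 on the LPS arrays of _2010 and at most 3.71 elsewhere. The mean over 6 oligodendrocyte lineage markers (3 passed) was 4.45 and 3.90 on the PBS arrays of _2010 and at most 2.63 elsewhere, that over 6 choroid plexus markers (2 passed) was 4.83 and 4.43, against at most 3.86, and that over 7 endothelial markers (3 passed) was 3.66 and 4.06, against at most 3.54. The part of these cells in the members' levels was not tested. In a bulk RNA sample, a change in the number of cells of a type and a change in RNA per cell cannot be told apart. The share of probe sets at the lowest value was 32.8% to 38.2% per array. The Gapdh 3′ minus 5′ difference, which is larger in degraded RNA, was 2.01 to 3.33 log2 on the 6 arrays of _2008 and _2010 and 0.89 to 2.77 on the other 12, of which 2 UT arrays were above 2. Tyrobp, which encodes DAP12, was at 13.80, 13.83, 13.75 and 14.23 in DAP12KO arrays, against 14.29 to 14.55 in UT arrays, so that its probe set still gave a bright signal in the mutant. The sources used here do not give where that probe set lies relative to the mutation, so its level does not check the genotype.

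**Figure D1:**
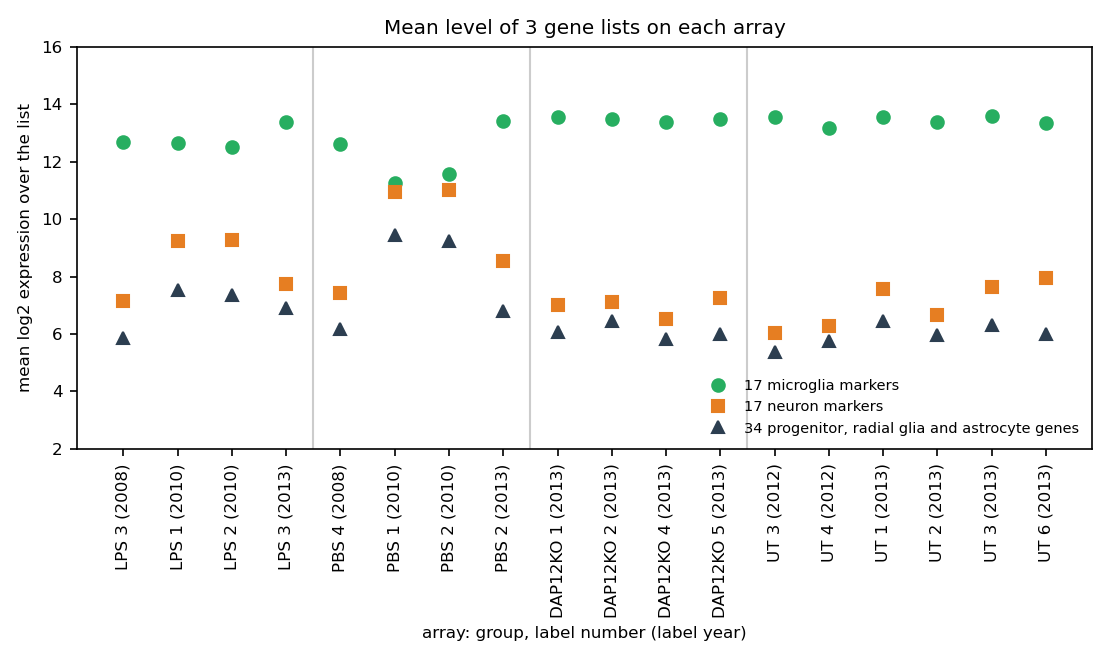
Mean log2 expression over 17 microglia markers, 17 neuron markers and the 34 progenitor, radial glia and astrocyte genes, with a point per list and array and the arrays in group order along the x axis. The progenitor and neuron means are highest on the 2 PBS arrays labelled _2010, next on the 2 LPS arrays labelled _2010, and the microglia mean is lowest on those PBS arrays.

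The promoters of 4 members show the range of sequence upstream of these genes. Hes5 and Sox21 are members bright only on arrays labelled _2010, while Fabp7 and Vim are members bright on every array. Each sequence is the 250 bases before the annotated start in RefSeq (GRCm38.p6), read 5′ to 3′ on the gene's strand. Capitals mark 3 motifs searched on both strands: TGGGAA, the core bound by RBPJ (the DNA-binding partner of Notch), CATTGT, bound by SOX factors, and GAGGAA, bound by PU.1, the lineage factor of microglia. Hes5 lies on the plus strand at chr4:154960673-154960922, Sox21 on the minus strand at chr14:118237031-118237280, Fabp7 on the plus strand at chr10:57784673-57784922 and Vim on the plus strand at chr2:13574061-13574310.
Hes5: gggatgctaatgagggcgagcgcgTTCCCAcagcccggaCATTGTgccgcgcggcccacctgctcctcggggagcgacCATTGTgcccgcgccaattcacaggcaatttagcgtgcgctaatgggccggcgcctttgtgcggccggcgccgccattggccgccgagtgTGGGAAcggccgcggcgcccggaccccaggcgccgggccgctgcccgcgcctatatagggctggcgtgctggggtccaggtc
Sox21: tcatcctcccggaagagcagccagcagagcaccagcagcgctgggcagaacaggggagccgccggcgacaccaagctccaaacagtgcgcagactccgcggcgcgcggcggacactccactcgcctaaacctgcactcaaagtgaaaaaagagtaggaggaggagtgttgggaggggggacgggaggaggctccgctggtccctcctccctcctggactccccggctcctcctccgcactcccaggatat
Fabp7: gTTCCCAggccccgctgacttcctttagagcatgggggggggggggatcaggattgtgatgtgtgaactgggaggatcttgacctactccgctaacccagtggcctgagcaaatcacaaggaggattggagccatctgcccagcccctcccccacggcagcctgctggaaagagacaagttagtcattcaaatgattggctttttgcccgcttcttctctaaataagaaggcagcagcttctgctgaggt
Vim: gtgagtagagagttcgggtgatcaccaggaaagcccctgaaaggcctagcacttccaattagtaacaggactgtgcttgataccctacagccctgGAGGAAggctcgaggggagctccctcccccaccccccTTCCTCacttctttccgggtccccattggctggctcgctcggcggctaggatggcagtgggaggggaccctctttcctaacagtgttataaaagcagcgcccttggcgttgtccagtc
The Hes5 window held 2 RBPJ and 2 SOX matches, the Fabp7 window 1 RBPJ match, the Vim window 2 PU.1 matches and the Sox21 window none. No base lay in 2 motifs.

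A window was used for 31 of the 34 members, with Hes1, Sox9 and Aqp4 named only. Windows on 1 chromosome were left out for members but not for the 27025 genes below. The RBPJ core was in the windows of 12 of 31 members (38.7%), against 24.1% of 27025 genes with a window. The SOX motif was in 2 of 31 (6.45%), Hes5 and Dll1, against 12.2% of all genes. The PU.1 motif was in 9 of 31 (29%), against 25.9%. Among the members bright on every array, RBPJ matches were in 2 of 5 (Fabp7 and Lhx2) and PU.1 matches in 2 of 5 (Vim and Lhx2). Among 9 members with a window that were bright only on arrays labelled _2010, RBPJ matches were in 3 (Hes5, Emx2 and Nr2e1) and a PU.1 match in 1 (Id3). A match says only that the letters are present and is no measure of binding.

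The members fell into 4 classes by level. With bright set as a log2 value of 8 or more, 5 members (14.7%) were bright on all 18 arrays, against 15.5% of the 18194 genes. A further 10 members (29.4%) were bright on 2 or more of the 4 arrays labelled _2010 and on no other array, against 1.33% of all genes. Another 13 were bright on some arrays in another pattern, and 6 were bright on none. These classes describe the levels and carry no test. At a threshold of 9, Nes and Lhx2 left the first class, which then held 3 members (8.82%, against 10.8% of genes), and the second held 7 (20.6%, against 1.31%). At a threshold of 7, Notch1 joined the first (6 members, 17.6%, against 21.1%) and the second held 4 (11.8%, against 1.33%): Sox2, Sox9, Sox21 and Gli3. Just inside the second class at log2 8, Sox9 had 8.04 on the lower of its PBS arrays of _2010. Just outside it, Gli3 had 7.35 on the lower one and was bright on 1 array only. With the mean over probe sets in place of the brightest one, the first class held 4 members and the second 7.

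**Figure D2:**
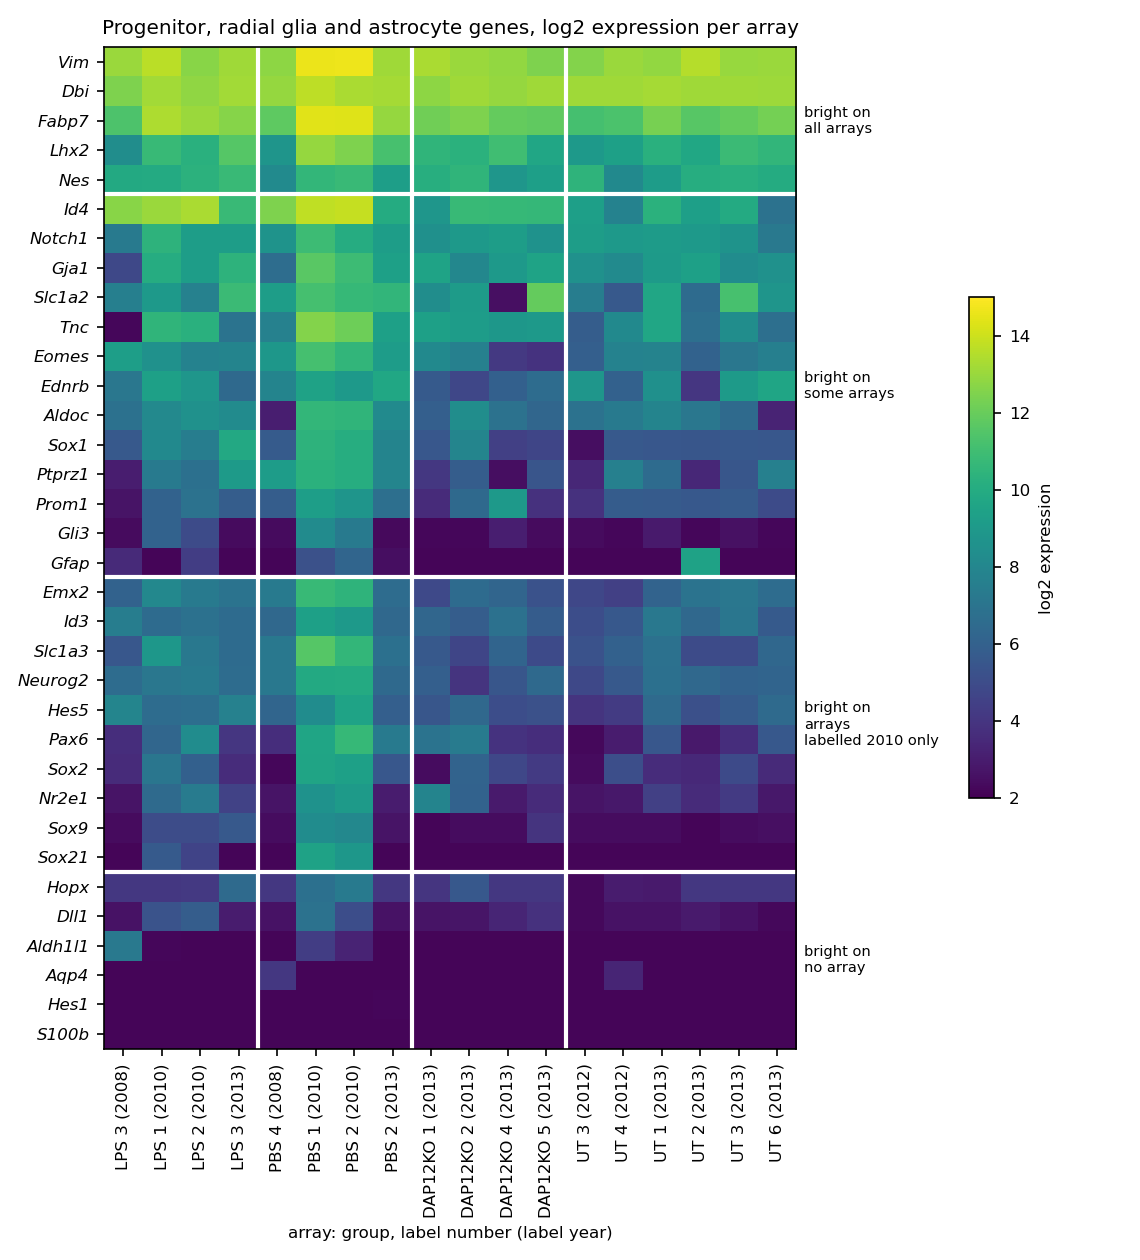
Log2 expression of the 34 members (rows, in 4 brightness classes) on each of the 18 arrays (columns, by group and label year), with colour from dark at log2 2 to yellow at log2 15. The columns of the 2 PBS arrays labelled _2010 are the lightest in most rows, and the 5 uppermost rows are light on every array.

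The members bright on every array were a pair of filament genes, a pair of lipid-binding genes and a transcription factor. Vim encodes vimentin, an intermediate filament of many cell types, and stood at 13.04 in _2008, 13.66 and 12.68 in _2010 and 13.13 in _2013 in LPS arrays, against 12.77 in _2008, 14.63 and 14.66 in _2010 and 13.16 in _2013 in PBS arrays. It stood at 13.37, 13.02, 12.87 and 12.46 in DAP12KO arrays, against 12.58 at the lowest, 13.01 at the median and 13.57 at the highest in UT arrays. Its PBS arrays of _2010 exceeded every other array, while the other values lay close together. Nes encodes nestin, the filament used as a neural stem cell marker, and stood at 9.88 in _2008, 9.93 and 10.36 in _2010 and 10.80 in _2013 in LPS arrays, against 8.20 in _2008, 10.60 and 10.79 in _2010 and 9.29 in _2013 in PBS arrays. Its level was 10.14, 10.51, 8.85 and 9.35 in DAP12KO arrays, against 8.17 at the lowest, 10.03 at the median and 10.46 at the highest in UT arrays. Nes was the 1 member of the class whose PBS arrays of _2010 were not the 2 highest, since the LPS array of _2013 exceeded both. The other probe sets of Nes were not bright on every array, with lowest values of 5.57 and 5.14.

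Fabp7, the brain lipid-binding protein of radial glia, stood at 11.38 in _2008, 13.39 and 13.06 in _2010 and 12.63 in _2013 in LPS arrays, against 11.78 in _2008, 14.40 and 14.36 in _2010 and 12.92 in _2013 in PBS arrays. It had 12.17, 12.47, 11.95 and 11.80 in DAP12KO arrays, against 11.18 at the lowest, 11.76 at the median and 12.33 at the highest in UT arrays. The 4 arrays of _2010 were the 4 highest, and even the lowest UT array was above log2 11. Dbi, an acyl-CoA binding protein, stood at 12.48 in _2008, 13.20 and 12.82 in _2010 and 13.18 in _2013 in LPS arrays, against 12.96 in _2008, 13.72 and 13.33 in _2010 and 13.26 in _2013 in PBS arrays. It had 12.79, 13.14, 12.95 and 13.15 in DAP12KO arrays, against 13.11 at the lowest, 13.14 at the median and 13.26 at the highest in UT arrays. Dbi varied least of these 5 genes, with a standard deviation (SD) of 0.34 over LPS arrays, 0.31 over PBS arrays, 0.17 over DAP12KO arrays and 0.06 over UT arrays. Lhx2, a homeodomain factor of the cortical and hippocampal primordium, stood at 8.36 in _2008, 10.75 and 10.26 in _2010 and 11.56 in _2013 in LPS arrays, against 8.76 in _2008, 12.94 and 12.48 in _2010 and 11.21 in _2013 in PBS arrays. It had 10.52, 10.30, 11.01 and 9.68 in DAP12KO arrays, against 9.05 at the lowest, 9.998 at the median and 10.87 at the highest in UT arrays. Its 2 lowest values were those of the arrays labelled _2008. Which cells gave the signal of these 5 genes was not tested.

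Transcription factors made up most of the class bright only on arrays labelled _2010. Pax6, a master regulator of forebrain radial glia, stood at 3.71 in _2008, 6.28 and 8.32 in _2010 and 4.06 in _2013 in LPS arrays, against 3.71 in _2008, 9.65 and 10.70 in _2010 and 7.34 in _2013 in PBS arrays. It had 6.95, 7.39, 3.93 and 3.71 in DAP12KO arrays, against 2.26 at the lowest, 3.34 at the median and 5.58 at the highest in UT arrays. Levels spread over more than 6 log2 units, and the PBS arrays of _2010 were highest. Sox2, which keeps neural stem cells undifferentiated, stood at 3.60 in _2008, 7.11 and 5.96 in _2010 and 3.66 in _2013 in LPS arrays, against 2.24 in _2008, 9.62 and 9.40 in _2010 and 5.55 in _2013 in PBS arrays. It had 2.44, 6.15, 4.76 and 4.19 in DAP12KO arrays, against 2.38 at the lowest, 3.59 at the median and 5.14 at the highest in UT arrays. Only the PBS arrays of _2010 were bright. Sox21, a related SOX factor, stood at 2.19 in _2008, 5.69 and 4.62 in _2010 and 2.19 in _2013 in LPS arrays, against 2.19 in _2008, 9.50 and 8.87 in _2010 and 2.19 in _2013 in PBS arrays. It was at the lowest value on all DAP12KO and all UT arrays. Sox21 was thus above the floor on the 4 arrays of _2010 alone, and the mean of those arrays exceeded that of the rest by 4.98, the widest such gap among the members.

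Sox9, a factor of radial glia and astrocytes, stood at 2.40 in _2008, 5.03 and 5.01 in _2010 and 5.61 in _2013 in LPS arrays, against 2.44 in _2008, 8.30 and 8.04 in _2010 and 2.70 in _2013 in PBS arrays. It had 2.19, 2.44, 2.44 and 3.97 in DAP12KO arrays, against 2.19 at the lowest, 2.44 at the median and 2.55 at the highest in UT arrays. On 7 arrays it took 1 repeated value, 2.44, within 0.01. Emx2, a homeodomain factor required for hippocampal growth, stood at 6.07 in _2008, 8.09 and 7.32 in _2010 and 6.94 in _2013 in LPS arrays, against 7.33 in _2008, 10.75 and 10.44 in _2010 and 6.61 in _2013 in PBS arrays. It had 4.87, 6.55, 6.25 and 5.26 in DAP12KO arrays, against 4.48 at the lowest, 6.38 at the median and 7.14 at the highest in UT arrays. Its LPS arrays of _2010 were lower than its PBS arrays of _2010 but higher than every UT array. Neurog2, a proneural factor, stood at 6.59 in _2008, 7.17 and 7.35 in _2010 and 6.58 in _2013 in LPS arrays, against 7.19 in _2008, 9.89 and 9.94 in _2010 and 6.45 in _2013 in PBS arrays. It had 5.95, 3.94, 5.49 and 6.45 in DAP12KO arrays, against 4.81 at the lowest, 6.13 at the median and 6.79 at the highest in UT arrays. Outside the PBS arrays of _2010 no array passed 7.35. Nr2e1 (Tlx), an orphan nuclear receptor of neural stem cells, stood at 2.68 in _2008, 6.49 and 7.39 in _2010 and 4.55 in _2013 in LPS arrays, against 2.68 in _2008, 8.62 and 9.06 in _2010 and 3.01 in _2013 in PBS arrays. It had 7.89, 6.08, 2.96 and 3.58 in DAP12KO arrays, against 2.68 at the lowest, 3.21 at the median and 4.44 at the highest in UT arrays. A DAP12KO array came close to the threshold, and the UT arrays were low.

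Hes5, a repressor switched on by Notch, stood at 7.91 in _2008, 6.62 and 6.71 in _2010 and 7.72 in _2013 in LPS arrays, against 6.24 in _2008, 8.31 and 9.52 in _2010 and 5.95 in _2013 in PBS arrays. It had 5.50, 6.37, 5.08 and 5.22 in DAP12KO arrays, against 3.96 at the lowest, 5.45 at the median and 6.51 at the highest in UT arrays. Its probe set has an _x_at name, which marks probes that also match other sequences, as do those used for Vim, Dbi and Gja1. Id3, an inhibitor of basic helix-loop-helix factors, stood at 7.52 in _2008, 6.55 and 6.86 in _2010 and 6.53 in _2013 in LPS arrays, against 6.37 in _2008, 9.41 and 9.03 in _2010 and 6.37 in _2013 in PBS arrays. It had 6.29, 5.82, 6.86 and 5.79 in DAP12KO arrays, against 5.05 at the lowest, 6.04 at the median and 7.23 at the highest in UT arrays. No array other than the PBS arrays of _2010 passed 7.52. Slc1a3 (GLAST), the glutamate transporter of radial glia and astrocytes, stood at 5.52 in _2008, 8.86 and 7.21 in _2010 and 6.56 in _2013 in LPS arrays, against 7.21 in _2008, 11.55 and 10.61 in _2010 and 6.79 in _2013 in PBS arrays. It had 5.63, 4.72, 6.16 and 4.92 in DAP12KO arrays, against 4.97 at the lowest, 5.65 at the median and 6.84 at the highest in UT arrays. The 4 arrays of _2010 were its highest, but the lower LPS array (7.215) barely exceeded the PBS array of _2008 (7.209). On another probe set of Slc1a3 the PBS array of _2008 (9.46) exceeded both LPS arrays of _2010 (8.12 and 7.54).

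Of the members bright on some arrays, Tnc, which encodes the matrix protein tenascin-C, stood at 2.23 in _2008, 10.49 and 10.28 in _2010 and 6.97 in _2013 in LPS arrays, against 7.69 in _2008, 12.57 and 12.11 in _2010 and 9.39 in _2013 in PBS arrays. It had 9.38, 9.18, 8.88 and 8.98 in DAP12KO arrays, against 5.82 at the lowest, 7.46 at the median and 9.68 at the highest in UT arrays. The LPS array of _2008 was the only one near the floor, and the DAP12KO arrays were close together, with an SD of 0.22, against 1.40 over UT arrays. Id4, another helix-loop-helix inhibitor, stood at 12.71 in _2008, 13.07 and 13.34 in _2010 and 10.83 in _2013 in LPS arrays, against 12.49 in _2008, 13.77 and 13.84 in _2010 and 9.98 in _2013 in PBS arrays. It had 8.84, 10.76, 10.71 and 10.64 in DAP12KO arrays, against 6.90 at the lowest, 9.32 at the median and 10.28 at the highest in UT arrays. The 6 arrays of _2008 and _2010 were its 6 highest, a pattern found in 1 of 31 tested members (3.23%) and 0.946% of all genes tested. The other probe sets of Id4 did not show it. On each, a DAP12KO array exceeded the PBS array of _2008 (5.63 against 4.37, and 7.62 against 6.59). Gli3, the hedgehog pathway repressor, stood at 2.36 in _2008, 6.11 and 4.97 in _2010 and 2.40 in _2013 in LPS arrays, against 2.36 in _2008, 8.28 and 7.35 in _2010 and 2.35 in _2013 in PBS arrays. It had 2.21, 2.21, 3.08 and 2.36 in DAP12KO arrays, against 2.21 at the lowest, 2.29 at the median and 2.92 at the highest in UT arrays. No array outside _2010 passed 3.08. Ednrb, the endothelin B receptor, stood at 7.14 in _2008, 9.39 and 8.84 in _2010 and 6.45 in _2013 in LPS arrays, against 7.88 in _2008, 9.50 and 8.96 in _2010 and 9.74 in _2013 in PBS arrays. It had 5.66, 4.75, 5.98 and 6.59 in DAP12KO arrays, against 4.04 at the lowest, 8.67 at the median and 9.62 at the highest in UT arrays. The UT arrays of Ednrb spread over more than 5 log2 units.

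The plot of 6 members by group shows these patterns side by side.

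**Figure D3:**
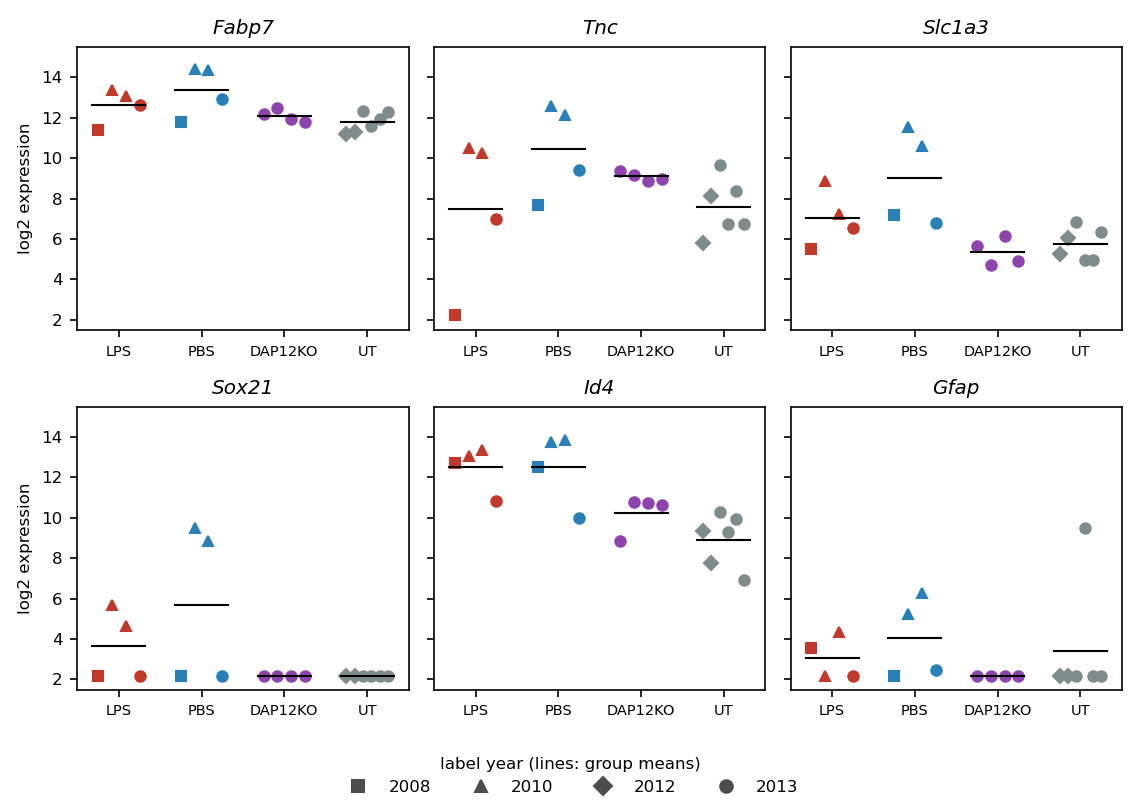
Log2 expression of Fabp7, Tnc, Slc1a3, Sox21, Id4 and Gfap in the LPS, PBS, DAP12KO and UT arrays, with a point per array, its shape by label year and a line at each group mean. Points of _2010 stand above the other years in the LPS and PBS groups for all but Gfap, points of _2008 join them for Id4 on the probe set used, and Gfap is high on 1 UT array.

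The other members of that class are given by range. Slc1a2 (GLT-1), the second glial glutamate transporter, ran from 7.63 to 10.86 in LPS, 9.24 to 11.15 in PBS, 2.52 to 11.91 in DAP12KO and 5.63 to 11.22 in UT arrays. The probe sets of Slc1a2 disagreed. On another, only the PBS arrays of _2010 were bright (8.74 and 9.03, at most 5.91 elsewhere). A further one was bright on arrays of several years, up to 10.87, and the rest stayed below log2 8 on every array. Gja1, the gap junction protein of astrocytes and radial glia, ran from 4.81 to 10.41 in LPS, 6.64 to 11.67 in PBS, 8.02 to 9.54 in DAP12KO and 8.23 to 9.41 in UT arrays. Notch1, the receptor, held 7.36 to 10.40 in LPS, 8.70 to 10.89 in PBS, 8.54 to 9.25 in DAP12KO and 7.28 to 9.23 in UT arrays. Notch1 and Gja1 were each bright on 16 arrays, and Slc1a2 on 12. Eomes (Tbr2), the factor of intermediate progenitors, held 7.76 to 9.26 in LPS, 8.89 to 11.16 in PBS, 3.92 to 8.19 in DAP12KO and 5.91 to 7.80 in UT arrays. Sox1, a neural stem cell factor, held 5.65 to 9.87 in LPS, 5.75 to 10.40 in PBS, 4.46 to 7.92 in DAP12KO and 2.47 to 5.65 in UT arrays. Ptprz1, a receptor phosphatase of radial glia, held 3.03 to 9.11 in LPS, 7.93 to 10.30 in PBS, 2.46 to 5.84 in DAP12KO and 3.46 to 7.67 in UT arrays. Eomes, Sox1 and Ptprz1 were brightest on the PBS arrays of _2010, as were the majority of members. Aldoc, the brain form of aldolase, held 6.87 to 8.59 in LPS, 3.11 to 10.61 in PBS, 5.93 to 8.39 in DAP12KO and 3.30 to 7.88 in UT arrays. Prom1 (CD133), a membrane protein of stem cells, held 2.68 to 6.91 in LPS, 5.85 to 9.28 in PBS, 3.59 to 9.003 in DAP12KO and 3.87 to 5.78 in UT arrays.

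Levels of astrocyte markers were uneven: on the probe sets used, Slc1a2, Gja1 and Aldoc, above, were bright on 12, 16 and 7 arrays, whereas S100b, Aqp4, Aldh1l1 and Gfap were near the floor on most. S100b, a calcium-binding protein of astrocytes, was at the lowest value on all 18 arrays, as were 16.6% of the 18194 genes. The water channel gene Aqp4 was at it on 16 arrays, with 4.13 on the PBS array of _2008 and 3.35 on a UT array of _2012. Hes1, the other Notch-driven repressor of the list, was at it on 17 arrays and at 2.22 on the PBS array of _2013. Aldh1l1, a folate enzyme used as an astrocyte marker, stood at 7.24 in _2008, 2.21 and 2.19 in _2010 and 2.19 in _2013 in LPS arrays, against 2.19 in _2008, 4.38 and 3.30 in _2010 and 2.19 in _2013 in PBS arrays. It was at the lowest value on all DAP12KO and UT arrays, so that its LPS array of _2008 stood alone. Gfap, the astrocyte filament, was at 9.49 on a UT array of _2013 and at 2.19 on the other 5 UT arrays and on all DAP12KO arrays. The Gapdh 3′ minus 5′ difference of that UT array was 2.24, against 0.99 to 1.20 on the other UT arrays of _2013. The probe sets of Gfap disagreed: the high UT array was not high on the other 2, of which 1 was highest in a DAP12KO array and 1 in the PBS arrays of _2010. Hopx, a homeodomain protein of outer radial glia in human cortex, stood at 4.10 in _2008, 4.10 and 4.18 in _2010 and 6.49 in _2013 in LPS arrays, against 4.10 in _2008, 6.80 and 7.30 in _2010 and 4.10 in _2013 in PBS arrays. It had 3.998, 5.59, 4.10 and 4.10 in DAP12KO arrays, against 2.27 at the lowest, 3.55 at the median and 4.10 at the highest in UT arrays. It took 1 repeated value, 4.10, on 9 arrays within 0.01. Dll1, a Notch ligand, held 2.61 to 5.82 in LPS, 2.61 to 6.92 in PBS, 2.70 to 3.87 in DAP12KO and 2.29 to 2.94 in UT arrays, and its 4 arrays of _2010 were the highest.

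Repeated values of this kind occurred in 16 members, which had 1 value on 3 or more arrays within 0.01, and for 8 of these the value lay above the filter threshold of 2.49. Differences between arrays at such values are 0 and say nothing of expression below them. The members had 84 probe sets in all, and 25 members had several. Of the 17 of these whose chosen probe set was highest on the PBS arrays of _2010, another probe set was also highest there for 13. It was not for Hes5, Nr2e1, Sox1 and Tnc.

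Across the list, the 2 PBS arrays of _2010 were the 2 highest of 18 for 23 of 31 tested members, against 12.2% of all genes tested. On the probe sets used, all 4 arrays of _2010 were the 4 highest for 7 of 31, against 3.62%: Fabp7, Slc1a3 (barely), Sox21, Tnc, Id4, Gli3 and Dll1. The LPS arrays of _2010 both exceeded every UT array for 19 of 31 members, against 13.2% of genes, and the PBS arrays of _2010 did so for 28 of 31, against 23.4%. Sox21 and Gli3 are in each of these counts and passed the filter on mean level only through the arrays of _2010. No UT or DAP12KO array is labelled _2010, so that in the counts against UT arrays the treatment of the dam and the year cannot be told apart. In _2008 and _2013 the mean of the 34 members was 6.16 and 6.80 on the PBS arrays and 5.86 and 6.89 on the LPS arrays. On UT arrays it was 5.35 to 6.44. The neuron marker mean was also above every UT array on the 4 arrays of _2010, and its part in the members' levels was not tested.

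LPS and PBS arrays were compared to see what inflammation of the dam does in the sorted embryonic cells. Most members were lower in LPS arrays, but none passed the test. With limma across all 11630 genes and year as a term, 29 of 31 members had a negative log2 difference, against 57.5% of all genes, with a median of −0.96, against −0.12 over all genes. At an adjusted p under 0.05, 0 of 31 were called, against 0.0946% of genes (11 genes). At an unadjusted p under 0.05, 13 of 31 were lower and 0 higher, against 8.98% and 3.47% of genes. Sox21 and Gli3 are among the 13. Both passed the filter on mean level only through the arrays of _2010, so nothing is read from their p.

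Tnc had the lowest p, at −2.95 ± 0.73 log2 (standard error, SE, n = 4 arrays per group, limma adjusted p = 0.146), a 7.71-fold lower level. Without the LPS array of _2008, where Tnc was near the floor, or without the PBS array of _2008, the difference was −2.11. On the probe set used, Tnc was lower in 4 of 4 LPS arrays than in the PBS arrays of the same year. Fabp7 followed at −0.75 ± 0.23 (limma adjusted p = 0.207), then Sox21 at −2.02 ± 0.61, given as a description, and Slc1a3 at −2.004 ± 0.66 (limma adjusted p = 0.239). For Fabp7 and Slc1a3 all 4 LPS arrays were lower within their year, whereas Sox21 was equal at the floor in _2008 and _2013. Emx2 was at −1.68 ± 0.60 (limma adjusted p = 0.27) with 3 of 4 LPS arrays lower. Dbi was at −0.40 ± 0.15 (limma adjusted p = 0.296), with 4 of 4 lower on the probe set used, though not on every Dbi probe set. Single arrays moved these values: Sox21 was at −1.40 without LPS array 2 of _2010 and at −2.69 without any 1 array of _2008 or _2013, and without either array of _2013 Emx2 was at −2.35 and Slc1a3 at −2.60. The 2 members with a positive difference were Nes at 0.52 ± 0.55 and Aldh1l1 at 0.44 ± 0.75. No member had all LPS arrays below all PBS arrays, a separation seen in 1.36% of genes. By class, the median difference was −0.68 for the 5 members bright on all arrays and −1.53 for the 10 bright only in _2010, a class that the PBS arrays of _2010 define.

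**Figure D4:**
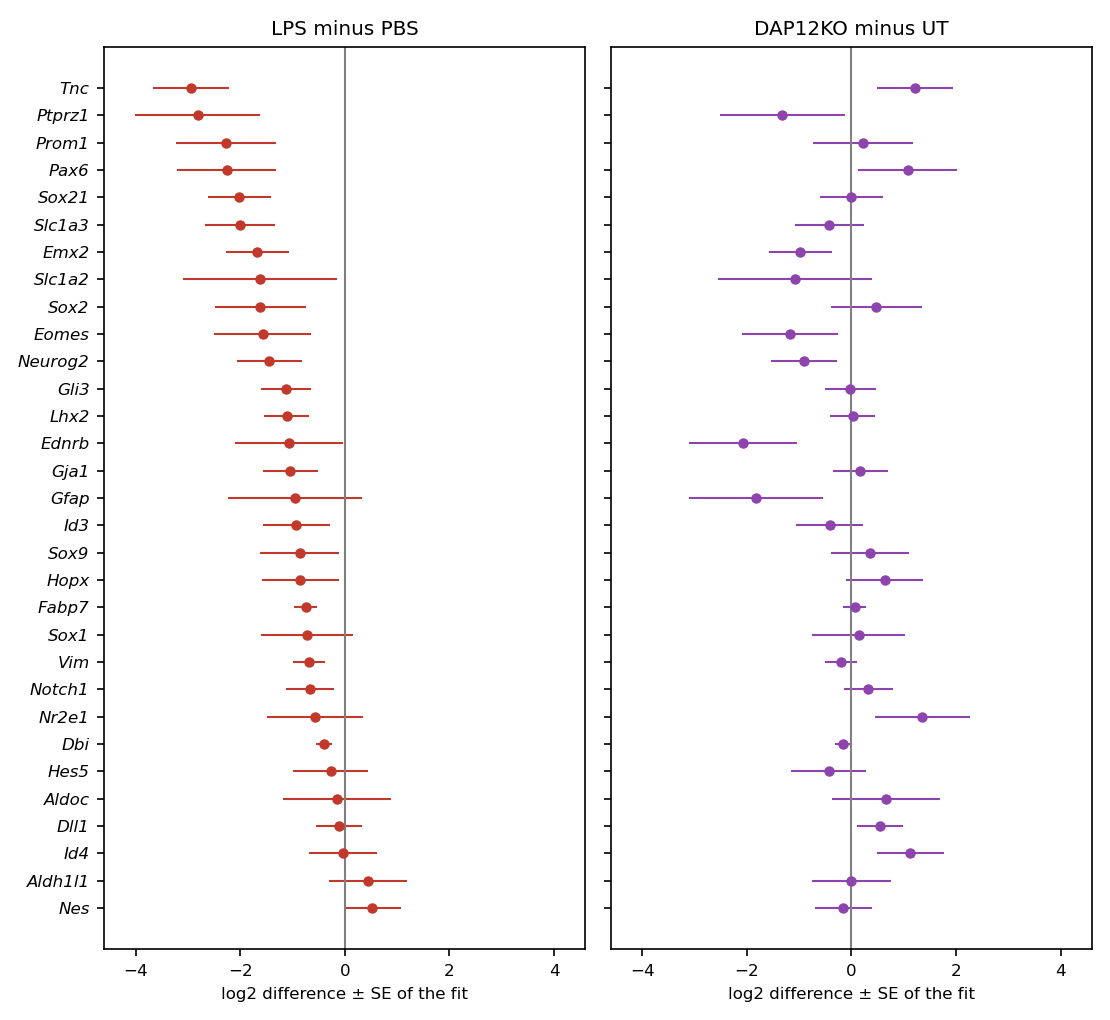
Fitted log2 differences of the 31 tested members for LPS minus PBS (left) and DAP12KO minus UT (right), with a point per member and bars of 1 SE of the limma fit. Points lie left of 0 for 29 members on the left panel, while on the right panel they lie on both sides of 0.

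The lower levels in LPS arrays were most frequent within _2010. In that year the LPS mean was below the PBS mean for 31 of 31 members, against 56.6% of genes, with a median of −2.27, and for 28 both LPS arrays were below both PBS arrays, against 31.3% of genes. Within _2008, with 1 array per group, the median was 0.00 with 15 lower (48.1% of genes were lower) and 10 higher. Within _2013, also with 1 array per group, it was 0.069 with 12 lower (54% of genes were lower) and 17 higher. Without the 4 arrays of _2010 the fitted median was −0.026, although Tnc was at −3.94, Slc1a3 at −0.96 and Fabp7 at −0.35. On the probe sets used, 7 of 31 members were lower in all 3 years, against 15.7% of genes: Fabp7, Slc1a3, Dbi, Ednrb, Tnc, Notch1 and Prom1. Another probe set of Notch1, Ednrb, Tnc and Dbi did not show it. There the LPS array of _2008 was higher for Notch1 (6.57 against 3.39) and Ednrb (5.95 against 2.82). The LPS array of _2013 was higher for Tnc (4.76 against 2.23) and Dbi (13.65 against 13.33). A further probe set of Dbi and the next brightest of Slc1a3 did show it. Tnc differed by −5.46 in _2008, −1.96 in _2010 and −2.42 in _2013, so that its smallest difference was that of _2010, and Fabp7 by −0.40 in _2008, −1.15 in _2010 and −0.30 in _2013. Over the 17 neuron markers the medians were −0.10, −1.46 and −0.90 in _2008, _2010 and _2013, and over the 17 microglia markers 0.00, 0.96 and −0.02. The part of either list in the members' differences was not tested.

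**Figure D5:**
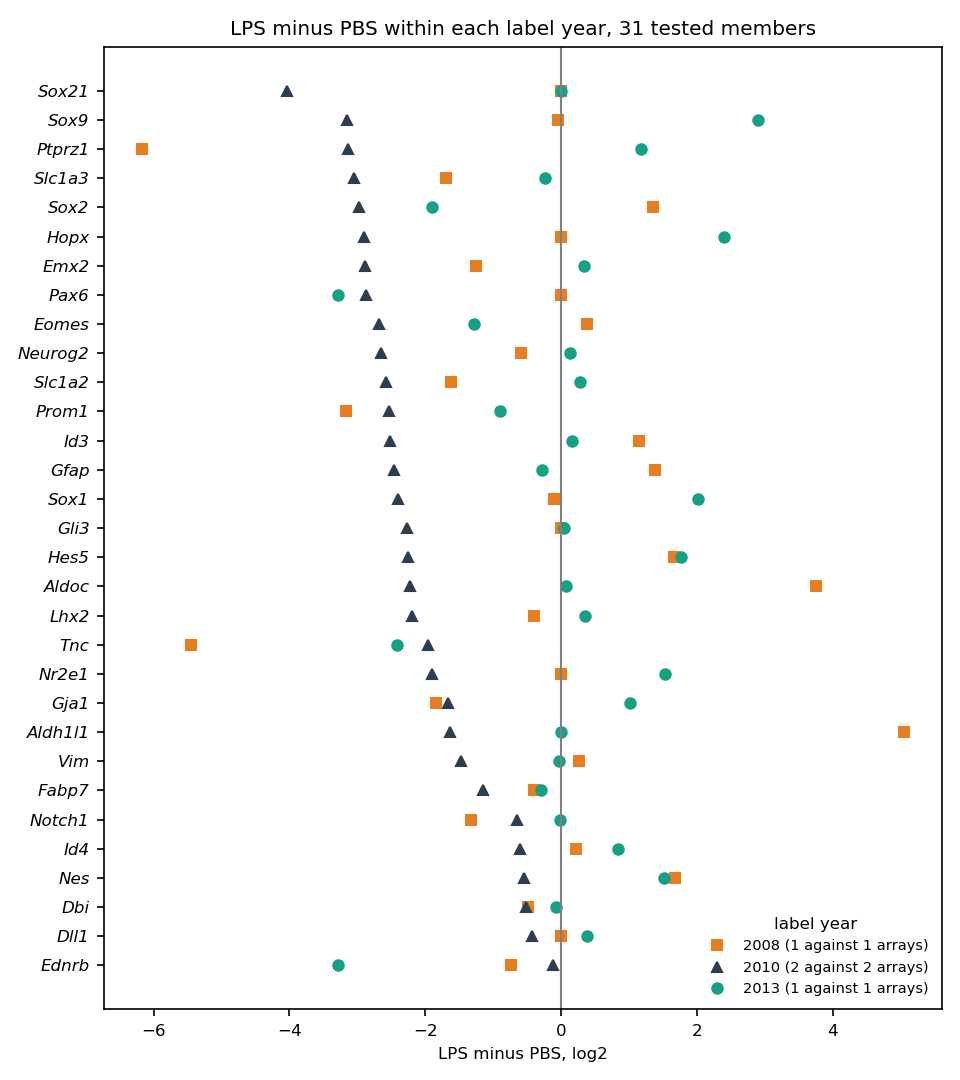
LPS minus PBS in log2 for each of the 31 tested members within each label year, with squares for _2008, triangles for _2010 and circles for _2013. All triangles lie left of 0, from −4.03 (Sox21) to −0.11 (Ednrb), whereas squares and circles lie on both sides.

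The difference between years was tested directly, as the LPS minus PBS difference of _2010 less its mean over _2008 and _2013, in a limma fit with a mean per group and year. It was negative for 28 of 31 members, against 50.1% of genes, and 5 of 31 were called, against 4.66% of genes (3.2% in the negative direction). At an unadjusted p under 0.05, 12 were lower and 0 higher, against 9.14% and 8.13% of genes. Sox21 and Aldh1l1 were among the 5 and were each at the lowest value on 14 arrays. Sox21 passed the filter on mean level only through the arrays of _2010, and Aldh1l1 only through the LPS array of _2008, so that their differences of −4.03 ± 0.53 and −4.17 ± 0.45 are given as a description and nothing is read from their calls. Gli3, among the 12 but not called, also passed the filter only through the arrays of _2010, and nothing is read from its p. The other 3 called were Sox9 (−4.59 ± 0.73, limma adjusted p = 0.0031), Hopx (−4.10 ± 0.90, limma adjusted p = 0.0206) and Hes5 (−3.97 ± 0.98, limma adjusted p = 0.0393). Sox9 and Hes5 belong to the class defined by high values on the arrays of _2010. Sox9 took 1 repeated value on 7 arrays and Hopx on 9. Differences between such arrays are 0, which lowers the spread of the fit, so nothing is read from the calls of Sox9 and Hopx. Id3, the next, did not pass (−3.17 ± 0.93, limma adjusted p = 0.0815). The LPS minus PBS differences of Sox9 were −0.04 in _2008, −3.16 in _2010 and 2.91 in _2013, and those of Hes5 were 1.67 in _2008, −2.25 in _2010 and 1.77 in _2013. Hopx differed by 0.00 in _2008, −2.91 in _2010 and 2.40 in _2013. Against _2013 alone 3 of 31 were called (Sox21, Sox9 and Hopx), against 1.5% of genes, and against _2008 alone 2 of 31 (Sox21 and Aldh1l1), against 8.83% of genes. With the mean over probe sets 7 of 31 were called, against 6.11% of genes, and Hopx was not among them (limma adjusted p = 0.0969). Hopx and Hes5 did not stay called without LPS array 1 (limma adjusted p = 0.0736 and 0.119), LPS array 2 (0.0656 and 0.109) or PBS array 2 of _2010 (0.0571 and 0.117), whereas Sox9 did. With genes under the 60th percentile left out, which removed 7 of the 31 members (Aldh1l1, Sox21, Sox9 and Hopx among them), 0 were called, against 0.616% of genes. Since _2008 and _2013 each hold 1 LPS and 1 PBS array, the spread of this fit comes from the other groups and years.

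The comparison of DAP12KO with UT asks what the loss of this microglial adaptor changes. The members lay on both sides of 0, with 15 higher, 14 lower (47.5% of genes were lower) and 2 (Sox21 and Aldh1l1) equal at the floor. Their median difference was 0.00, against 0.02 over all genes. By limma, 0 of 31 had an adjusted p under 0.05, against 0% of genes, and 0 of 31 an unadjusted p under 0.05, against 5.48%. Since every DAP12KO array is labelled _2013, the 4 UT arrays of that year set the difference. No member had DAP12KO and UT arrays of _2013 apart, against 1.18% of genes wholly lower and 1.2% wholly higher.

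Ednrb had the lowest p, at −2.07 ± 1.04 log2 (SE, limma adjusted p = 0.908), with 4 of 4 DAP12KO arrays below the UT mean of _2013. The next 5 by p had the same adjusted p of 0.908 in the limma fit. Id4 was at 1.13 ± 0.65 with 3 of 4 DAP12KO arrays higher, and Tnc at 1.21 ± 0.73 with 4 of 4 higher. Emx2 was at −0.98 ± 0.60 with 4 of 4 lower, Neurog2 at −0.91 ± 0.62 with 3 of 4 lower, and Nr2e1 at 1.36 ± 0.92 with 2 of 4 higher. Single arrays moved several of these values: Nr2e1 was at 0.44 without DAP12KO array 1 and 2.08 without DAP12KO array 4, Id4 at 0.39 without UT array 6, Ednrb at −3.34 without UT array 2 and −1.48 without UT array 6, and Tnc at 1.81 without UT array 1 of _2013. Gfap was at −1.82 ± 1.28, a difference set by the single high UT array. The 5 members bright on every array differed by −0.19 to 0.06. Neuron markers were at 6.51 to 7.25 in DAP12KO arrays and 6.04 to 7.94 in UT arrays, and microglia markers at 13.39 to 13.56 in DAP12KO arrays and 13.19 to 13.58 in UT arrays.

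Other genes of the same pathways were read from 4 lists. Of 15 tested Notch pathway genes, 5 were higher and 10 lower in LPS arrays, with a median of −0.14, 0 called by limma and 4 (1 higher and 3 lower) at an unadjusted p under 0.05, against 12.4% of all genes. The lowest p in it were those of Hey2, a Notch target (−2.17 ± 0.44, limma adjusted p = 0.0854), Numb, a Notch inhibitor (1.46 ± 0.43, limma adjusted p = 0.192), and Jag1, a ligand (−0.98 ± 0.39, limma adjusted p = 0.323). Hey2 averaged 2.20 in LPS arrays, at the floor, against 4.37 in PBS arrays. Between DAP12KO and UT, 4 of these were higher and 11 lower with 0 called, with Maml1, a coactivator, at −1.32 ± 0.50 and the receptor Notch3 at −0.94 ± 0.79. Of 7 hedgehog pathway genes, 1 was higher and 6 lower in LPS arrays, with 0 called by limma and 1, lower, at an unadjusted p under 0.05. Gas1, a coreceptor, was at −3.43 ± 0.65 (limma adjusted p = 0.0620), Smo, the signal transducer, at 0.80 ± 0.44, and Ptch1, the receptor, at −1.06 ± 0.79. Gas1 averaged 3.82 in LPS arrays, against 7.25 in PBS arrays. In DAP12KO arrays Gli2, an activator of the pathway, differed from UT by −0.64 ± 0.63 and the coreceptor Cdon by −0.86 ± 0.996, with 0 of 7 called.

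Of 18 other progenitor transcription factors, 1 was higher and 17 lower in LPS arrays, with a median of −1.02, 0 called by limma and 8, all lower, at an unadjusted p under 0.05, where 8.98% of all genes were lower. Nfia, which promotes the switch to gliogenesis, was at −1.64 ± 0.40 (limma adjusted p = 0.133), Zic1 at −3.20 ± 0.86 and Pou3f2 (Brn2) at −2.05 ± 0.58. Zic1 was lower in each year, by −6.20 in _2008, −2.31 in _2010 and −1.98 in _2013. In DAP12KO arrays Insm1, a factor of delaminating progenitors, was at −1.65 ± 0.60 and Tead2, a Hippo pathway factor, at 2.46 ± 0.91, with 0 of 18 called. Of 31 other radial glia and astrocyte genes, 8 were higher and 23 lower in LPS arrays, with a median of −1.07 and 0 called by limma. At an unadjusted p under 0.05 were 8, all lower, beside the same 8.98% of all genes. Atp1b2, a sodium pump subunit of astrocytes, was at −4.002 ± 0.82 (limma adjusted p = 0.0859), Mlc1, a membrane protein of astrocytes, at −1.89 ± 0.52, and Clu, which encodes clusterin, at −2.82 ± 0.81. Atp1b2 was lower by −5.44 in _2008, −3.24 in _2010 and −4.10 in _2013, and so was lower by more than 3 log2 units in every year. In DAP12KO arrays Clu was at −2.43 ± 0.81 and Lrig1, a growth factor signalling inhibitor, at 2.15 ± 0.82, with 0 of 31 called. For the test between years, 1 of 15 Notch and 1 of 7 hedgehog genes were called, both lower, 1 of 18 progenitor genes, higher, and 3 of 31 glial genes, 2 lower and 1 higher, beside the 4.66% of all genes.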

How the data were processed

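RNA of sorted cells was measured on 18 arrays of the Mouse430_2 type. The authors deposited log2 expression values for 45101 probe sets. The submitters' processing notes name RMA, and the sources used here give neither its version nor its variant. The values were used as deposited. Probe sets with 1 gene symbol (34958) were kept, the one with the highest mean stood for a gene, and genes averaging below log2 2.49, the 40th percentile over probe sets, were not tested. All arrays were fitted with limma 3.58.1 (R 4.3.3, eBayes with trend), with a mean per group and label year as a term, residual degrees of freedom 11, two-sided tests and Benjamini-Hochberg adjustment over 11630 genes at 0.05. A second fit with a mean per group and year had 9. The steps were tested on simulated data. Errors are SE of the fit or SD over arrays, and the number of arrays limits the precision. Alternatives covered the year term, filter, probe sets, array weights, a replicate block, low values and left-out arrays. Figures used matplotlib 3.10.9 in Python 3.11.15.

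The members and all lists were chosen with earlier results of these data known. Full statistics, but for the p of Sox21 and Aldh1l1, are given for members called in a contrast and, where fewer than 6 were, for the 6 with the lowest p. Values per array are given for those, for members bright on all arrays and for the 4 members with the largest gap between arrays labelled _2010 and the rest (Sox21, Gli3, Pax6 and Sox2). Of each other list the 3 genes with the lowest p in LPS minus PBS and the 2 in DAP12KO minus UT are named. Promoter sequences come from RefSeq.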

Additional observations from a re-analysis of the deposited data

Results flagged for a closer look

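Single arrays far from the rest of their group, by Dixon's criterion at 95%, occurred in 14 of 122 pairs of a member and a group (11.5%). The criterion's chance rate of 1 in 20 assumes values without ties from 1 normal distribution. Several flagged pairs are tied at the floor or at a repeated value, where a small departure is flagged, and the LPS and PBS groups mix label years. The share is therefore not read against that rate. Aldh1l1 was at 7.24 on the LPS array of _2008, against at most 2.21 on the other LPS arrays. Gfap was at 9.49 on a UT array of _2013 (array 2), where the others were at 2.19, and that array also had a Gapdh 3′ minus 5′ difference of 2.24, against 0.99 to 1.20 on the other UT arrays of _2013. Hopx was at 6.49 on the LPS array of _2013, with 4.18 as the nearest, and at 5.59 on a DAP12KO array, with 4.10 as the nearest. Sox9 was at 3.97 on a DAP12KO array and, at the other end, at 2.19 on a UT array of _2013 whose nearest neighbour was at 2.44. Id4 was low on a DAP12KO array (8.84), with 10.64 as the nearest value. Among UT arrays, Sox1 was low at 2.47 (_2012), Aldoc at 3.30 (array 6 of _2013) and Notch1 at 7.28 (also array 6), and Dbi was high at 13.26. Aqp4 was at 4.13 on the PBS array of _2008 and at 3.35 on a UT array of _2012, and Hes1 at 2.22 on the PBS array of _2013, all other arrays of these groups being at the lowest value.

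The LPS minus PBS difference was called as differing between label years, by the test of that difference, for 5 members. The difference of _2010 was below the mean of _2008 and _2013 by −4.17 log2 for Aldh1l1, −4.03 for Sox21, −4.59 for Sox9, −4.10 for Hopx and −3.97 for Hes5. Sox21 and Aldh1l1 were at the lowest value on 14 arrays each, and Sox9 and Hopx took 1 repeated value on 7 and 9 arrays. Nothing is read from the calls of these genes. The value of Aldh1l1 rests on its LPS array of _2008 and that array is among the distant ones above, as is the LPS array of _2013 for Hopx, which was not called against _2008 alone.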

How the results depend on the processing

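Leaving out both PBS arrays of _2010, or all 4 arrays of _2010, brought the median LPS minus PBS difference of the members, −0.96 with all arrays, to −0.026 in both cases. Within _2008, _2010 and _2013 it was 0.00, −2.27 and 0.069, and with array weights −1.75. With each LPS and PBS array left out in turn it ran from −1.53 (without either array of _2013) to −0.67 (without LPS array 2 of _2010). The members called stayed at 0 in these fits by limma, with 5 to 7 at an unadjusted p under 0.05 without any 1 array of _2010. With all arrays 13 were, beside 12.4% of all genes. Members were called under 2 alternatives: 1 with the mean over probe sets (Slc1a3, −1.59, limma adjusted p = 0.0454) and 9 with array weights, where 826 genes of all tested were called. With the replicate block the count was 0 and the median −0.97 for LPS minus PBS, and 0 and 0.01 for DAP12KO minus UT. Same-numbered LPS and PBS arrays of _2010 shared their deviations from the group means across genes (Pearson r = 0.53). This is a single comparison, since the 2 arrays of a group deviate by opposite amounts. The numbers of DAP12KO and UT arrays gave −0.01 and 0.01, which says nothing of LPS and PBS arrays. The labels state no pairing, so the main fits used none, and the numbers entered only the replicate block. That block ties same-numbered arrays of a year in any group by 1 shared correlation, so it is no check of a pairing within _2010. Whether the LPS and PBS arrays of _2010 were paired was not tested. Emx2 turned to 0.33 within _2013, and the cause was not tested. The count of members whose LPS minus PBS difference differed between years was 5 (542 genes of all tested), against 2 versus _2008 alone (1027 genes), 3 versus _2013 alone (175 genes; both chosen after seeing the data), 7 with the mean over probe sets (711 genes) and 0 with the filter at the 60th percentile (54 of 8768 genes), and it ran from 3 to 5 with each array of _2010 left out. Bright on all arrays were 3 members at a threshold of log2 9, and bright only in _2010 were 4 at log2 7. With the mean over probe sets, 4 were bright on all arrays and 7 only in _2010. Under 18 alternatives the DAP12KO minus UT count stayed at 0. The arrays of _2008 and _2013 number 1 per group for LPS and PBS, and values at the floor bound the levels of several members.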
